A study of Mus musculus with 103 samples.

Results

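The Hox genes of the 4 mouse clusters were followed across Prom1-sorted cells, primary tumours and metastases. They were taken as all genes whose symbol is Hoxa, Hoxb, Hoxc or Hoxd followed by a number. Of 39 such genes in RefSeq, 34 had a probe set on the array, among 17097 named genes. Hoxa contributed 9, Hoxb 10, Hoxc 6 and Hoxd 9, and the others were not analysed here. A gene with several probe sets was read from the one with the highest mean.

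Hox proteins are homeodomain transcription factors that give cells their position along the head-to-tail axis of the embryo. The genes lie in clusters in the order of their paralogue numbers, low numbers are used towards the head and high numbers towards the tail, and many adult tissues keep part of this pattern. Paralogues are genes of the same number in different clusters, and they often share tasks. Hox proteins bind DNA together with TALE cofactors such as Pbx and Meis, Cdx proteins act upstream of the clusters, and trithorax and polycomb complexes keep clusters on or off.

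The study traced Prom1-expressing cells in mouse organs and targeted them with oncogenic alleles, and log2 expression values of 1 array per sample were deposited. Prom1 (prominin 1, CD133) is a surface protein used to isolate stem-like and epithelial cells. Cells positive for it were enriched with magnetic beads in 40 samples: 3 of salivary gland, 4 of lung, 2 of stomach, 5 of liver, 3 of small intestine, 4 of kidney, 4 of uterus and 3 of prostate, all labelled normal, with 3 of neonatal liver and 9 of DDC-treated liver. Dissected primary tumours made up 56 samples. Skin gave 4 perineal, 3 perioral and 1 periorbital squamous cell carcinoma, the lung 2 adenocarcinomas, and the stomach 7 adenomas and 4 adenocarcinomas. The liver gave 14 tumours labelled hepatocellular carcinoma/cholangiocarcinoma (HCC/CC) and 2 hepatoblastomas, the gut 3 small and 5 large intestinal adenomas, the uterus 3 carcinomas and the prostate 8 adenocarcinomas. The other 7 samples were single metastases.

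No genotype, driver oncogene, strain or sex is labelled for any sample, no age beyond the word neonatal, and no dose or time for DDC. Whether the arrays of a group come from different animals is not labelled, and p-values here measure a spread between samples that may be technical. Tumours were whole tissue and extracted with another kit than the sorted cells, so that sort, kit and tumour state cannot be told apart. In such bulk RNA, fewer cells of a type and less RNA per cell cannot be told apart either.

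Array medians lay between 3.82 and 4.24. A level under 4.10, the 40th percentile of all values over all genes and arrays, is called background here, and a difference from such a level understates the true one. Organ markers stood where the labels put them: hepatocyte markers were higher in liver cells for 6 of 6, enterocyte markers in small intestine cells for 5 of 5, proximal tubule markers in kidney cells for 4 of 4, alveolar markers in lung cells for 4 of 4, stomach and salivary markers in their own cells for 6 of 6 each, luminal prostate markers for 3 of 4 and uterine epithelium markers for 3 of 5. The 3′ minus 5′ difference of the Gapdh control probe sets, which grows as RNA degrades, had group means of 0.30 to 1.10 in sorted cells and 0.25 to 0.73 in tumour groups, except 1.25 in the periorbital carcinoma. That of the actin control probe sets was highest in kidney cells, at 1.72, beside 0.40 to 1.52 in all other groups. Their part in the results was not tested. A call required an adjusted p under 0.05 in limma, with Benjamini-Hochberg adjustment over all genes tested, and a log2 difference of at least 1. Genes were tested if a compared group stood above background. A gene at background in the other group could then mostly be called in 1 direction only. Counts of called genes therefore describe the members and do not support a test of the family.

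The promoters of 4 members that separate the groups below are shown first, as the 250 bases before the RefSeq start site (GRCm38.p6). They are given 5′ to 3′ in the direction of transcription, and capitals mark each match to TTTATNG, a Cdx-type motif, on either strand. Hoxb8 lies at chr11:96281655-96281904 on the plus strand, Hoxd4 at chr2:74721728-74721977 and Hoxd8 at chr2:74704365-74704614 on the plus strand, and Hoxa5 at chr6:52204588-52204837 on the minus strand.
Hoxb8: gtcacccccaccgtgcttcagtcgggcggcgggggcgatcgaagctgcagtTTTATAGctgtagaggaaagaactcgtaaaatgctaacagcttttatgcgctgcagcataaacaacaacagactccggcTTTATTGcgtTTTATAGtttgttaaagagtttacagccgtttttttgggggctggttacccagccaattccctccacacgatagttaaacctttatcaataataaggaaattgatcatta
Hoxd4: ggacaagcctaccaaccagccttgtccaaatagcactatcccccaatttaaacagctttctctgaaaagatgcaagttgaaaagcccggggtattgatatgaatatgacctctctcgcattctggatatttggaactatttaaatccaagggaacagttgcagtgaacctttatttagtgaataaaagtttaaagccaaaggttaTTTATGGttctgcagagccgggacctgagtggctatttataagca
Hoxa5: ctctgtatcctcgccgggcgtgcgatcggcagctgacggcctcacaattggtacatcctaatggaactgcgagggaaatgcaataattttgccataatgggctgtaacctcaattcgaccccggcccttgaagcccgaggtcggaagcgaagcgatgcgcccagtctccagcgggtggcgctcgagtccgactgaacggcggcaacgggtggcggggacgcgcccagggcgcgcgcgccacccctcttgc
Hoxd8: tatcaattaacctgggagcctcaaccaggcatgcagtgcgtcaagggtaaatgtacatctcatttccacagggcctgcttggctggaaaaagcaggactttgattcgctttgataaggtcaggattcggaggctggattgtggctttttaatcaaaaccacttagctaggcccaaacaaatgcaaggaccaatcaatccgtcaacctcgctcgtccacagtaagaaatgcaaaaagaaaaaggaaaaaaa
The Hoxb8 window held 3 matches, a number reached by 0.0487% of 32851 RefSeq promoters. Hoxd4 held 1 match, and Hoxa5 and Hoxd8 held none. Of the 23 promoter windows available for 21 measured Hox genes, 2 (8.70%) held the motif, beside 9.81% of all promoters. TGATTNAT, a Pbx-Hox type motif searched on both strands, stood in 2 of the 23 windows (8.70%) and in 2.82% of all; none of its windows was one with TTTATNG. The Hox windows held a median of 12 CG pairs and 58.0% G and C, beside 6 pairs and 52.4% over all promoters. Among the 4 shown, the number of CG pairs ran from 3 in Hoxd4 to 28 in Hoxa5.

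Hox genes above background were few in samples from the head and more numerous in those from kidney to the rear of the body. The rise was not steady: kidney cells had more than uterus cells or perineal carcinoma, and lung cells more than stomach or small intestine cells. In each sorted kidney sample 18 to 21 of the 34 genes stood above background, in prostate cells 16 to 19 and in uterus cells 12 or 13. Lung cells had 8 to 14, liver cells 5 to 11, small intestine cells 4 or 5, stomach cells 3 to 6 and salivary gland cells 1 or 2. Among tumours, prostatic adenocarcinoma had 14 to 19, large intestinal adenoma 13 to 20, uterine carcinoma 11 to 15 and perineal carcinoma 10 to 14. Perioral carcinoma had 2 to 5, the periorbital carcinoma 1, HCC/CC 1 to 6 and gastric adenoma 2 to 7. In 25 genes at least 1 group of 2 or more samples had a mean above background. The other 9, Hoxb1, Hoxd1, Hoxa2, Hoxa4, Hoxc5, Hoxb7, Hoxd11, Hoxd12 and Hoxa13, had none, and nothing further can be read from them except that they were not detectable as group means on this array.

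**Figure D1:**
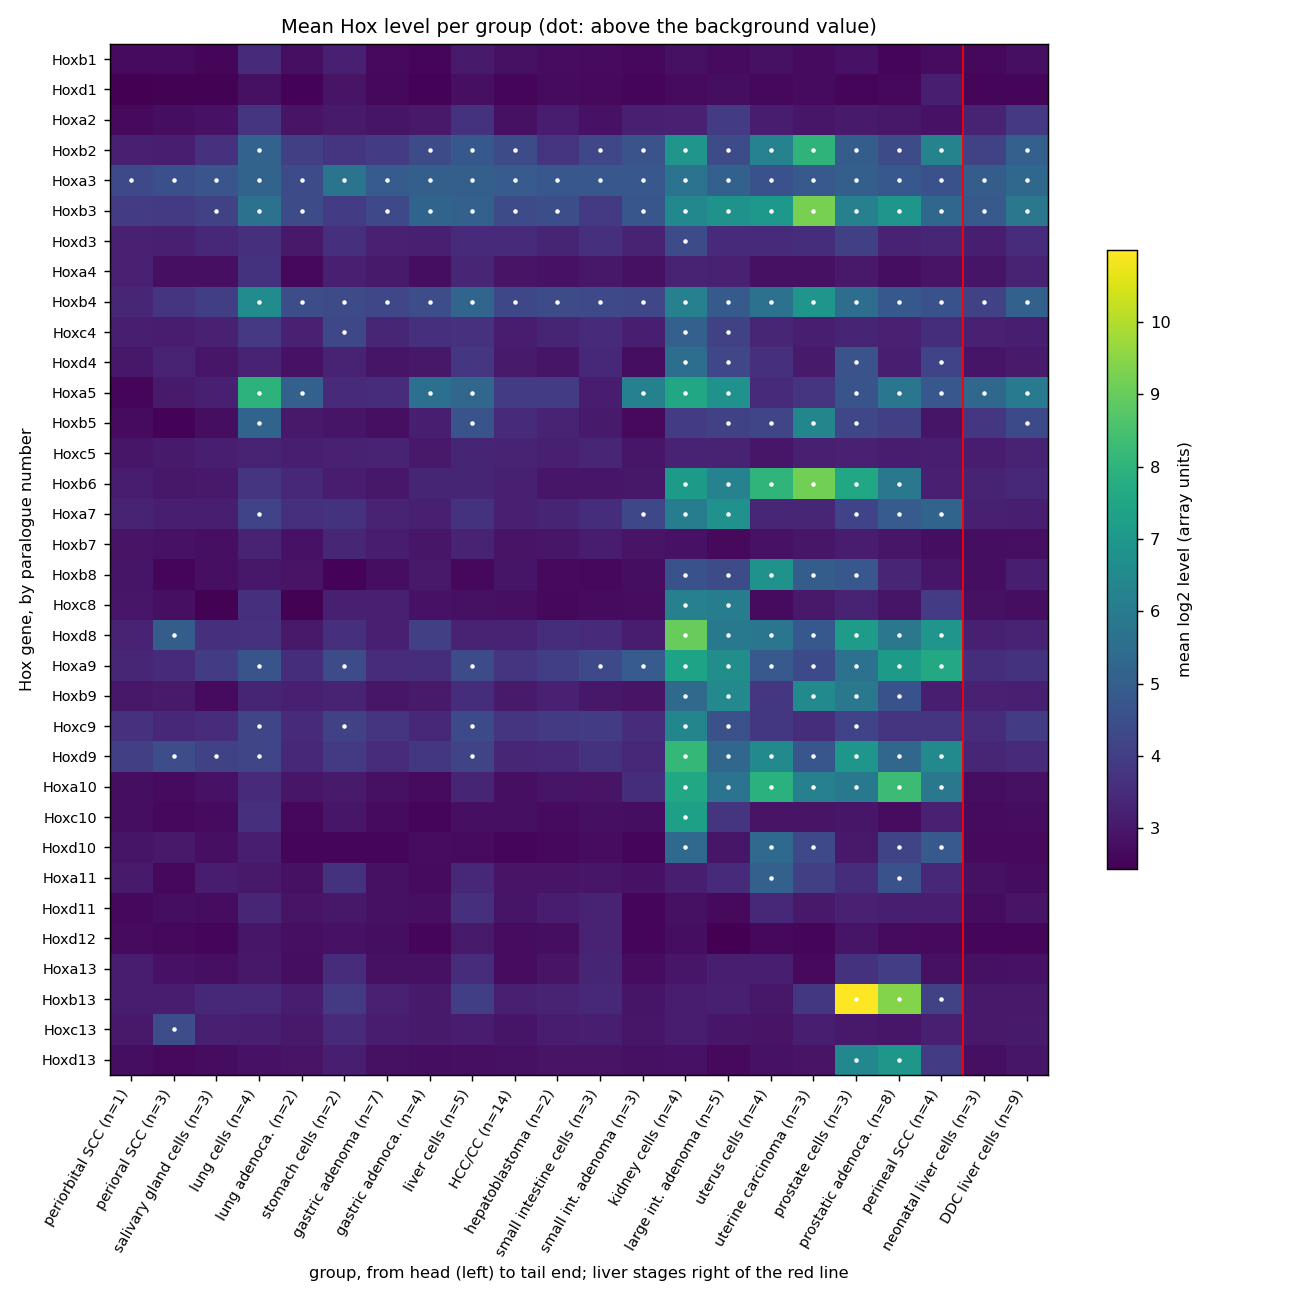
Mean log2 level of 34 Hox genes (rows, by paralogue number) in 20 groups ordered from head to tail and in 2 further sorted liver groups (columns, with the number of samples). White dots mark means above background: they are sparse in skin of the head, salivary gland, stomach and liver. They are dense from kidney to perineal skin, where Hoxb13 reached 10.99 in prostate cells. Lung cells, with 8 to 14 genes above background per sample, are an exception on the left.

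Groups were placed on 8 steps by the adult site of the organ: skin of the head and salivary gland, lung, stomach and liver, small intestine, kidney, colon, uterus and prostate, and perineal skin. Over the 20 group means the Spearman correlation of level with step had a median of 0.48 in the 34 Hox genes and was above 0 in 31. It was 0.53 in the 25 genes above background in a group, of which 16 (64.0%) exceeded 0.5. Over the 13685 genes above background in a group the median was 0.069, and 1.21% exceeded 0.5. Hoxa10 (0.79), Hoxa9 (0.78) and Hoxb2 (0.74) ranked 1, 2 and 3 among those 13685 genes, and Hoxb3 (0.72) ranked 5. These correlations are descriptions with no test: groups hold 1 to 14 samples, and they mix sorted cells with tumours, which were extracted with different kits. The median over the 34 genes was 0.33 in the 8 sorted organs alone and 0.53 in the 12 tumour groups alone. These sets cover different sites: only sorted cells include kidney and salivary gland, and only tumours include colon, perineal skin and skin of the head.

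By paralogue number, genes 1 to 3 had a median correlation of 0.42, genes 4 to 8 of 0.47, genes 9 and 10 of 0.55 and genes 11 to 13 of 0.31. For genes 1 to 3 the median was 0.08 in the sorted organs and 0.70 in the tumour groups, and for genes 4 to 8 it was 0.24 and 0.54. For genes 9 and 10 it was 0.54 and 0.55, and for genes 11 to 13 it was 0.22 and 0.43. These medians include genes at background. The 0.08 is the value of Hoxa2 and the 0.22 that of Hoxd11, neither above background as a group mean. The 0.70 is that of Hoxd3, above background as a group mean in kidney cells only. In the sorted organs Hoxb2, Hoxb3 and Hoxd3 had 0.60, 0.58 and 0.48, and Hoxa3 had -0.19. The class of genes 11 to 13 included genes that were high at a single site. Hoxb13 and Hoxd13 had their highest means in prostate cells (10.99 and 6.45) and prostatic adenocarcinoma (9.42 and 6.98). The next means were in perineal carcinoma, at 4.14 and 3.95. Hoxc13 went the other way (-0.25), with its highest mean, 4.46, in perioral carcinoma.

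Most neighbours within a cluster that were above background in a group varied together. Over all samples, the 17 pairs of adjacent measured genes that were both above background in a group had a median Pearson r of 0.78, and 14 of them exceeded 0.5. Other pairs of the same cluster had a median of 0.40 (51 pairs), paralogues in different clusters 0.45 (22 pairs) and all remaining pairs 0.28 (210 pairs). With genes at background included, the medians were lower. They were 0.55 for 30 adjacent pairs, of which 16 exceeded 0.5, and in the same order 0.22, 0.38 and 0.16. Adjacent measured genes can have unmeasured ones between them, as Hoxc10 and Hoxc13 have Hoxc11 and Hoxc12. The closest neighbours were Hoxd8 and Hoxd9 (0.94), followed by Hoxc9 and Hoxc10 (0.84). The closest pair in different clusters was Hoxb13 with Hoxd13 (0.93), both highest in prostate samples. Hoxc10 and Hoxc13 (0.02) shared no pattern. The samples share groups, so that r describes this set only. RefSeq gene models of Hoxb3 and Hoxb4, Hoxd3 and Hoxd4, Hoxd10 and Hoxd11, and Hoxa3 with Hoxa4 and Hoxa5 overlap, so a probe set of one may read part of the other's transcripts.

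Kidney cells, the sorted population with the most Hox genes above background, were then compared with the mean of the other 7 sorted organs. Of 34 genes, 24 were tested, 18 were higher and 1, Hoxb13, was lower, where 16.3% of all 13107 tested genes were called higher and 17.2% lower. The filter kept genes above background in any of the 8 organs, so these counts describe the genes and do not support a test of the family. The Hoxb13 call is against a mean that prostate cells raise (10.99), the only sorted group with mean Hoxb13 above background. The called genes spanned all clusters and the numbers 2 to 10, and no gene above number 10 was higher. Hoxd8, a central-cluster gene, measured 8.85, 8.88, 9.21 and 9.0 in the 4 kidney samples and 2.80 to 7.37 in the 24 others (difference 4.63 ± 0.17 SE, adjusted p = 2.32e-22). Every kidney sample lay above every other sample. Hoxc10, a gene of the lumbar hindlimb region in embryos, measured 7.30, 7.20, 7.14 and 7.51 against 2.51 to 4.51 (difference 4.33 ± 0.20, adjusted p = 1.87e-19). It was above background elsewhere in only a part of the lung cells, so that kidney cells stood alone among the sorted organs. Hoxd9, the neighbour of Hoxd8, measured 8.18, 8.08, 8.18 and 8.16 against 3.44 to 7.47 (difference 3.35 ± 0.24, adjusted p = 2.75e-14), again without overlap. Hoxa10 (3.32 ± 0.20), Hoxc8 (3.19 ± 0.23), Hoxa5 (3.10 ± 0.77), Hoxa9 (2.79 ± 0.26) and Hoxb6 (2.58 ± 0.24) followed. The smallest calls, named because they depended on single samples, were Hoxb3 (1.31 ± 0.54), Hoxb4 (1.07 ± 0.41) and Hoxb8 (difference 1.0 ± 0.27). Hoxb3 was lost without any 1 of the kidney samples (adjusted p = 0.0571 to 0.104), Hoxb4 without sample 1 or 4, and Hoxb8 fell below the size threshold without sample 2 or 4. With the mean of probe sets Hoxb3 (0.90) and Hoxb4 (0.88) fell below the size threshold as well. Stroma markers were lower in kidney cells for 7 of 10 (mean of the list 3.27 to 3.38), macrophage markers for 8 of 8, and general epithelium markers for 5 of 8, and their part in the Hox differences was not tested.

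Prostate cells were marked by the last genes of 2 clusters. Of the 24 tested Hox genes 8 were higher, beside 10.4% of all genes, and none was lower in limma (7.26% of all genes), where 2 had an unadjusted p under 0.05 in that direction. Hoxb13, a gene of prostate differentiation and the end of the Hoxb cluster, measured 10.82, 11.39 and 10.76 in prostate cells and 2.89 to 4.33 in the 25 others (difference 7.51 ± 0.18, adjusted p = 6.25e-28). Every prostate sample was far above all others, most of which were at background. Hoxd13, which acts in urogenital and digit development, measured 8.42, 5.59 and 5.33 against 2.46 to 3.23 (difference 3.57 ± 0.29, adjusted p = 2.88e-12). All 3 samples were higher than all others, and 1 was well above the other 2. Prostate samples lay above all others for 3.1% of all genes tested. A second probe set of Hoxd13 did not show this pattern (r = 0.41 over all samples, highest group mean 3.33, in small intestine cells), and with the mean of both the difference was 1.82. Hoxb6 measured 7.38, 7.08 and 8.11 (difference 3.05 ± 0.27, adjusted p = 2.83e-11), a range shared with kidney and uterus cells. Hoxd8 (2.49 ± 0.20), Hoxb9 (2.30 ± 0.28), Hoxd9 (1.98 ± 0.27), Hoxa10 (1.46 ± 0.22) and Hoxb8 (1.19 ± 0.31) were also higher and overlapped other organs. The Hoxb8 call was lost without prostate sample 1 (difference 0.60, adjusted p = 0.206). In prostate cells epithelium markers were higher for 4 of 8 and stroma markers for 3 of 10, and their part was not tested.

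In uterus cells Hoxa10, Hoxb6 and Hoxb8 led the higher genes. Of the 24 tested genes 8 were higher and Hoxb13 was lower, beside 15.3% and 7.38% of all genes. The Hoxb13 call is again against a mean that prostate cells raise. Hoxa10, required in the uterus for implantation, measured 7.17, 8.29, 8.06 and 8.12 (difference 3.76 ± 0.20, adjusted p = 3.49e-17). Kidney cells, at 7.27 to 7.72, overlapped these values, and the next organ was prostate at 5.45 to 6.29. Hoxb6 measured 8.27, 8.37, 7.77 and 7.78 (difference 3.65 ± 0.24, adjusted p = 1.14e-14) and overlapped prostate cells. Hoxb8 measured 6.71, 7.90, 6.25 and 6.41 against 2.19 to 5.94 in all others (difference 3.54 ± 0.27, adjusted p = 9.92e-13) and did not overlap them. Hoxd10 (2.16 ± 0.13), Hoxb3 (1.96 ± 0.54), Hoxa11 (1.79 ± 0.20), Hoxb2 (1.46 ± 0.48) and Hoxd9 (1.46 ± 0.24) were higher as well. Hoxa11, like Hoxa10 a gene of the developing female tract, varied from 3.99 to 5.96. The Hoxb2 call was lost without uterus sample 2 (adjusted p = 0.0552). Median centring, under which the median over all genes was -0.41 in place of 0.08, gave 6 higher and 8 lower Hox genes, and Hoxb2 and Hoxd9 then missed both or the size threshold (0.99 each, adjusted p = 0.0507 and 0.00261). Stroma markers were higher in uterus cells for 10 of 10 (list mean 8.10 to 9.06), smooth muscle markers for 6 of 7 and macrophage markers for 8 of 8, and their part was not tested.

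**Figure D2:**
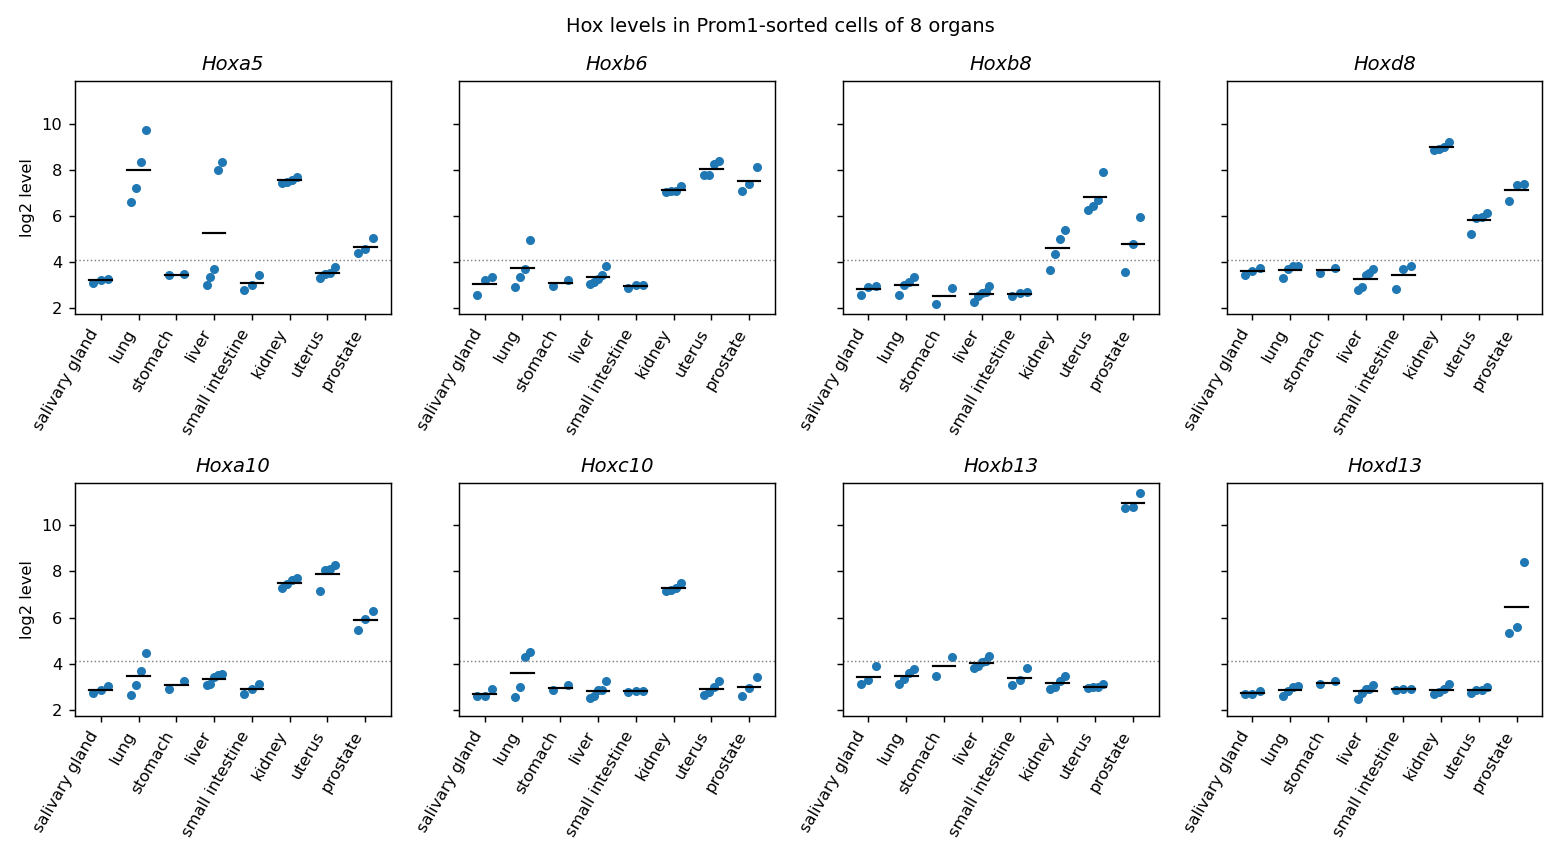
Log2 level of 8 Hox genes (panels) in each sample of Prom1-sorted cells (points) from 8 organs, with the group mean (bar) and the background value (dotted line). Hoxb13 and Hoxd13 stood out in prostate, Hoxc10 and Hoxd8 in kidney and Hoxb8 in uterus, while Hoxa5 split the 5 liver samples into 2 at 7.99 and 8.34 and 3 between 2.97 and 3.67.

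In lung cells Hoxa5, Hoxb4 and Hoxb5 were the higher genes. Of the 24 tested genes 3 were higher and 5 lower, beside 12.8% and 18.6% of all genes, so that both shares are near those of all genes. Hoxa5, which is required for lung development, measured 9.72, 7.23, 6.61 and 8.34 (difference 3.59 ± 0.77, adjusted p = 0.000207). Kidney cells and 2 liver samples fell into the same range. Hoxb4 measured 7.64, 6.10, 5.80 and 6.69 (difference 1.52 ± 0.41, adjusted p = 0.00222), and Hoxb5, a paralogue of Hoxa5, 7.54, 4.78, 3.39 and 5.03 (difference 1.49 ± 0.59, adjusted p = 0.0329). In all 3 genes sample 1 was the highest and sample 3 the lowest, and the Hoxb5 call was lost without sample 1 (difference 0.71, adjusted p = 0.337) or sample 4 (adjusted p = 0.0595). Endothelium markers had the same extremes, with list means of 11.23, 8.50, 8.04 and 9.83 in samples 1 to 4, and were higher in lung cells for 8 of 8. So did alveolar markers (9.60, 8.26, 8.10 and 9.11) and epithelium markers (6.97, 6.56, 5.93 and 6.70). The TALE and the trithorax and polycomb lists described below had them too. Stroma, smooth muscle, macrophage and lymphocyte markers did not. The part of these differences between samples in the Hox levels was not tested. Hoxd8, Hoxa10, Hoxb6, Hoxd9 and Hoxb13 were lower than the mean of the other organs by 1.11 to 1.45. Kidney, uterus and prostate cells raise that mean, for Hoxb13 prostate cells alone.

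In liver, salivary gland, small intestine and stomach cells all Hox calls were in the lower direction. There were 5 in liver cells (20.8% of those tested), near the 18.2% of all genes called lower, and 11 in salivary gland cells, beside 9.57% lower and 20.4% in either direction. Small intestine cells had 8, beside 15.1% lower and 29.4% in either direction, and stomach cells 6, beside 10% lower. Limma called 0 Hox genes higher in each of the 4 organs, where 10.1%, 10.9%, 14.3% and 9.08% of all genes were, and 1, Hoxa3 in stomach cells, had an unadjusted p under 0.05 in that direction. Hoxb6, Hoxa10 and Hoxd8 or Hoxd9 led each list, and each of these differences is against a mean that kidney, uterus and prostate cells raise. Hoxb6 measured 3.43, 3.84, 3.12, 3.25 and 3.03 in liver cells, 2.58, 3.36 and 3.20 in salivary gland cells, 2.85, 3.01 and 3.0 in small intestine cells and 2.97 and 3.22 in stomach cells. All of these were background, and its differences were -1.74, -2.07, -2.17 and -2.01. Some genes of number 9 did stand above background as group means, such as Hoxa9 (4.42), Hoxc9 (4.37) and Hoxd9 (4.19) in liver cells. Hoxa10 measured 3.13, 3.54, 3.52, 3.05 and 3.42 in liver, 2.74, 3.02 and 2.85 in salivary gland, 2.69, 2.88 and 3.09 in small intestine and 3.24 and 2.88 in stomach, with differences of -1.47, -2.0, -1.98 and -1.78. Hoxd8, at 2.80 to 3.67 in liver cells (difference -1.92 ± 0.16, adjusted p = 2.26e-12), was also background in the other 3 organs. Salivary gland cells alone also fell by 1.48 in Hoxb2 and 1.35 in Hoxb4, calls that were lost when any 1 of the 3 salivary samples was left out. Without salivary sample 3 the count was 7. The Hoxb3 call in small intestine cells (-1.60 ± 0.61) was lost without any 1 of their samples, and the Hoxb8 call in stomach cells (-1.36 ± 0.37) without stomach sample 2. With the mean of probe sets Hoxb3 in small intestine cells fell below the size threshold (-0.965).

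Within liver, no Hox gene passed both thresholds for age or DDC on the values as deposited, and some did under other settings. Of the 9 Hox genes tested in each comparison with untreated liver cells, limma called 0, where 30.7% of all genes were called for neonatal cells (8.63% lower) and 21.7% for DDC-treated cells (5.49% lower). Quantile normalization gave 4 lower genes for neonatal and 1 for DDC-treated cells, and median centring 5 and 3. The mean of probe sets, leaving out probe sets ending in _x_at, _s_at or _a_at, and leaving out the filter gave 1 each. With the compared groups alone in the fit DDC-treated cells also gave 1. Hoxa9, Hoxc9 and Hoxd9 had an unadjusted p under 0.05 in each, all lower. In neonatal cells their differences were -0.86 ± 0.34, -0.85 ± 0.28 and -0.81 ± 0.32 (adjusted p = 0.0403, 0.0151 and 0.0367). These genes missed the size threshold only. In each of them all 3 neonatal samples lay below all 5 untreated ones, as they did for 11.4% of all genes tested. In DDC-treated cells Hoxa9 (-0.71 ± 0.26) and Hoxd9 (-0.68 ± 0.24) passed the adjusted p but not the size, and the groups overlapped. Hoxa5 had the widest spread, at 7.99, 8.34, 3.33, 2.97 and 3.67 in untreated cells and from 3.87 through a median of 4.81 to 9.64 in DDC-treated cells. Its high and low samples occurred in both groups, which overlapped. Endothelium markers were high in the same samples: their list mean was 10.05 and 10.26 in the 2 untreated samples with high Hoxa5 and 6.20 to 7.38 in the other 3. It was 9.43 to 9.88 in the 4 DDC-treated samples with Hoxa5 above 7 and 6.54 to 7.94 in the other 5. Hepatocyte markers ran the other way. Their list mean was 12.84 and 12.49 in those 2 untreated samples and 13.26 to 13.37 in the other 3. It was 11.65 to 13.13 in those 4 DDC-treated samples and 13.37 to 13.45 in the other 5. Macrophage markers were also higher in the 2 untreated samples, at 9.72 and 10.76 beside 7.88 to 8.50. Whether any of these cells account for the spread was not tested.

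Prostatic adenocarcinoma and sorted prostate cells differed in 11 Hox genes. Of 19 tested genes 5 were higher (12.4% of all genes) and 6 lower (8.69%). Hoxa10 ranged from 7.39 through a median of 8.34 to 8.94 in the 8 tumours and measured 5.45, 6.29 and 5.95 in the sorted cells (difference 2.42 ± 0.29, adjusted p = 0.000127). All tumours were higher than all sorted samples. Hoxb6 ranged from 4.25 through a median of 5.92 to 6.79 against 7.38, 7.08 and 8.11 (difference -1.67 ± 0.51, adjusted p = 0.0223), without overlap. Hoxd9 ranged from 4.14 through a median of 5.39 to 5.81 against 6.95, 6.41 and 7.47 (difference -1.67 ± 0.34, adjusted p = 0.00328), also without overlap. Hoxa9 (1.45 ± 0.52), Hoxd10 (1.15 ± 0.33), Hoxa5 (1.15 ± 0.22) and Hoxa11 (1.04 ± 0.30) were higher, and Hoxb13 (-1.57 ± 0.51), Hoxd4 (-1.45 ± 0.18), Hoxb8 (-1.40 ± 0.45) and Hoxd8 (-1.28 ± 0.26) lower. Thus 4 of the 5 higher genes belonged to Hoxa. Mean Hoxd4 went from 4.62 in sorted cells to 3.17 in tumours and mean Hoxb8 from 4.76 to 3.36, which is background, while Hoxa11 went from 3.55 to 4.59 and Hoxd10 from 3.04 to 4.19, out of background. Hoxb13 remained at 7.99 to 11.12 in the tumours, and Hoxd13, at 5.41 to 7.61, was not called (difference 0.53).

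The number of prostate calls depended on the scaling and on single samples. Quantile normalization and median centring each left 1 higher gene, Hoxa10, and 6 and 7 lower ones. After centring, Hoxa9 differed by 1.2 (adjusted p = 0.082), Hoxa5 by 0.90 and Hoxa11 by 0.79, the last 2 under the size threshold, and Hoxd10 was filtered out under both. Over all genes the median difference was 0.14 as deposited and 0.01 and -0.13 under these settings, and the share of calls that were higher was 58.8% as deposited and 37.9% after centring. The count was between 6 and 11 when a sample was left out, lowest without sorted prostate sample 3. Hoxb13 and Hoxa9 were lost without any 1 of the 3 sorted samples, Hoxb6 without sample 1 (adjusted p = 0.0576) or 3 (0.0996), Hoxd10 and Hoxa11 without 2 or 3, and Hoxb8 without 1 or 2. Hoxa9 was also lost without any 1 of adenocarcinomas 1 to 7, Hoxa11 fell below the size threshold without 1, 5 or 6, and Hoxd10 was filtered out without 1, 5 or 6. In that comparison stroma markers were higher in tumours for 5 of 9 and smooth muscle markers for 5 of 7, macrophage markers were lower for 5 of 8 and luminal prostate markers for 3 of 4, and their part was not tested.

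Uterine carcinoma differed from uterus cells within the Hoxb cluster. Of 14 tested genes 6 were higher, all of them Hoxb genes, beside 8.57% of all genes, and 3 were lower, beside 10.1%. Hoxb9 measured 7.48, 5.82 and 6.27 in carcinomas and 3.84, 3.90, 3.77 and 3.65 in sorted cells (difference 2.73 ± 0.38, adjusted p = 0.0022). The sorted cells were at background and all carcinomas above it. Hoxb3 measured 9.20, 9.28 and 9.18 against 6.94, 7.09, 6.78 and 7.18 (difference 2.22 ± 0.15, adjusted p = 0.000113), with narrow and separate groups. Hoxb5 measured 6.49, 6.27 and 6.38 against 4.68, 4.99, 3.92 and 3.28 (difference 2.16 ± 0.40, adjusted p = 0.00717), also separate. Hoxb2 (1.78 ± 0.22), Hoxb4 (1.28 ± 0.17) and Hoxb6 (1.11 ± 0.20) were higher without overlap. Hoxb8 (-1.84 ± 0.57), Hoxd9 (-1.77 ± 0.42) and Hoxd8 (-1.0 ± 0.29) were lower. Of the 7 fits that left a sample out, 6 lost Hoxb8, all but the one without carcinoma 2, and 5 lost Hoxd8, all but those without carcinoma 1 or uterus sample 1. Hoxd9 was lost without carcinoma 2 (adjusted p = 0.0527). Hoxa10 was split, at 8.44, 5.02 and 5.06 in the carcinomas, and was not called (difference -1.74). Macrophage markers were lower in the carcinomas for 8 of 8 and keratinocyte markers higher for 4 of 7, stroma markers were higher for 1 and lower for 1 of 10, and their part was not tested.

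**Figure D3:**
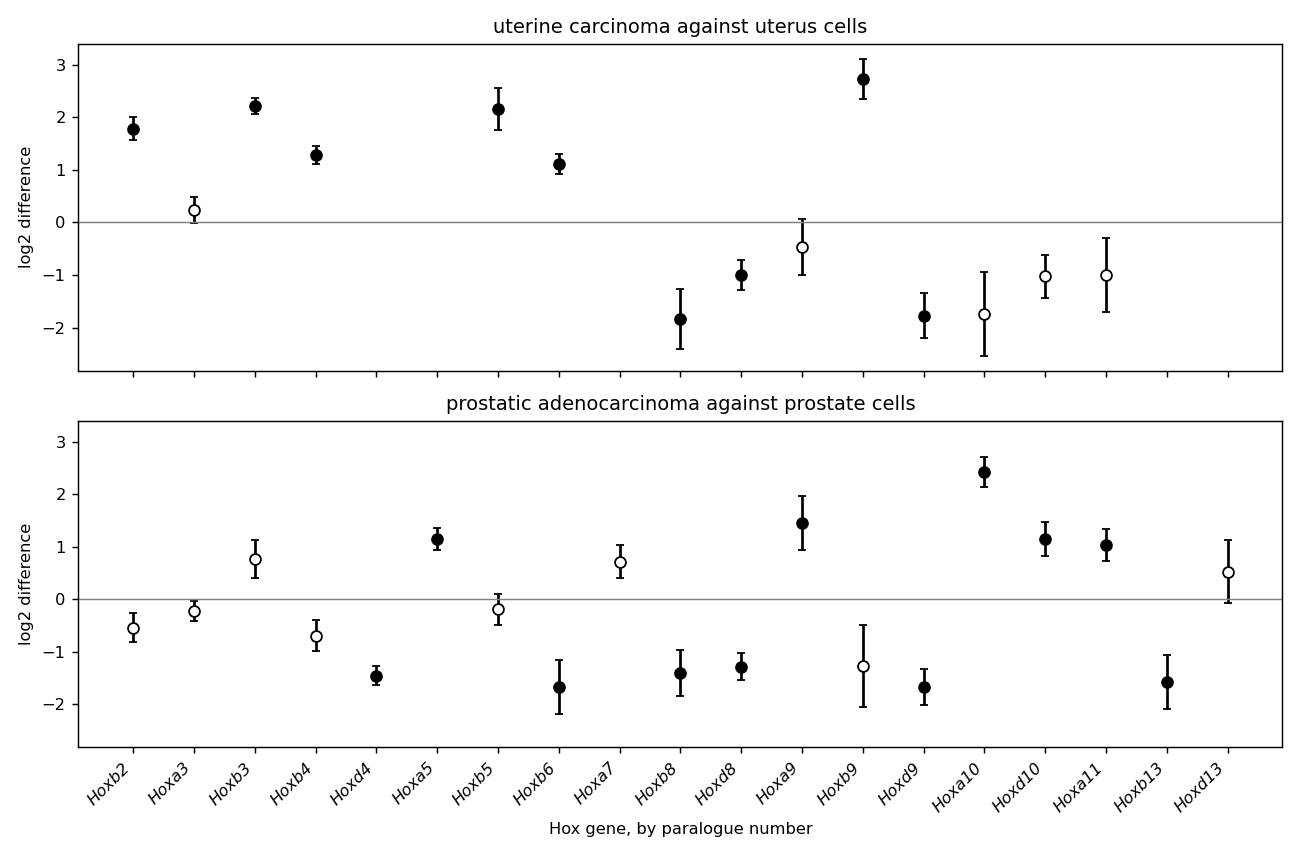
Log2 difference between tumour and Prom1-sorted cells of the same organ (points, with 1 standard error) for each tested Hox gene, by paralogue number. Filled points are calls. In uterus Hoxb2 to Hoxb6 and Hoxb9 lay above 0, and in prostate Hoxa5, Hoxa9, Hoxa10, Hoxa11 and Hoxd10 did.

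The difference between these 2 tumour effects was tested directly in a fit of the 4 groups, chosen after the values were seen. Of 19 Hox genes, 7 had a higher effect in uterus than in prostate (8.34% of all genes) and 2 a lower one (10.2%). The 7 were Hoxb2, Hoxb3, Hoxb4, Hoxb5, Hoxb6, Hoxb9 and Hoxb13, and the 2 were Hoxa10 and Hoxd10. For Hoxb6 the effects were 1.11 and -1.67 (difference 2.78 ± 0.65, adjusted p = 0.00634), and for Hoxa10 -1.74 and 2.42 (difference -4.16 ± 0.81, adjusted p = 0.00193). Hoxd8 and Hoxd9 were lower in both tumours, and their effects did not pass the test of a difference (0.28 ± 0.39 and -0.11 ± 0.56).

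In the other tumours at most 1 Hox gene was called against the sorted cells on the values as deposited. In small intestinal adenoma Hoxa5 was the single higher gene of 7 tested (13.6% of all genes), and limma called 0 lower (8.43% of all genes), with 0 at an unadjusted p under 0.05. Hoxa5 measured 5.54, 6.95 and 6.14 against 3.44, 3.01 and 2.79 (difference 3.13 ± 0.39, adjusted p = 0.00218), with no overlap. Smooth muscle markers were higher in these adenomas for 6 of 6 and stroma markers for 5 of 8, and their part was not tested. In gastric adenoma limma called 0 of 6 Hox genes (2 lower at an unadjusted p under 0.05), where 8.07% of all genes were higher and 3.07% lower. Quantile normalization gave 1 lower gene there and median centring 2. In lung adenocarcinoma it called 0 of 10 (3 lower at an unadjusted p under 0.05), where 5.73% were higher and 2.38% lower. It called 2 lower under either scaling, 3 with all groups in 1 fit and 1 with the 60th percentile filter. In HCC/CC it called 0 of 9 (5 lower at an unadjusted p under 0.05), where 17.4% were higher and 6.23% lower. For HCC/CC quantile normalization gave 3 lower genes, median centring 7 of them and all groups in 1 fit 2. Among the genes that missed a call as deposited, Hoxd9 (-0.82 ± 0.18, adjusted p = 0.00134), Hoxc9 (-0.63 ± 0.13, adjusted p = 0.0011), Hoxa9 (-0.67 ± 0.19) and Hoxb4 (-0.94 ± 0.35) in HCC/CC and Hoxa9 (-0.88 ± 0.21) in gastric adenoma passed the adjusted p and missed the size threshold. Hoxa5 measured 4.73 and 5.42 in lung adenocarcinoma, below each of the 4 lung cell samples (difference -2.90 ± 0.84, adjusted p = 0.061).

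Squamous cell carcinomas of the skin of the rear and of the mouth, tumours of 1 type at both ends of the body, differed clearly in Hox genes. Of 14 tested genes 9 were higher in perineal carcinoma, while 1.55% of all genes were, and 1, Hoxc13, was lower, while 1.79% of all genes were. Genes at background in perioral tumours, such as Hoxa9, Hoxa10 and Hoxb2, entered through their level in perineal ones. These counts therefore do not support a test of the family. Hoxa9, a trunk and limb gene, measured 7.97, 7.41, 7.67 and 7.32 in perineal and 3.66, 3.42 and 3.27 in perioral carcinoma (difference 4.14 ± 0.49, adjusted p = 1.62e-08). Hoxa10, its neighbour, measured 5.42, 5.89, 6.33 and 5.84 against 2.59, 2.71 and 2.83 (difference 3.16 ± 0.64, adjusted p = 0.000672). Hoxb2, best known for patterning the hindbrain, measured 5.93, 7.15, 6.29 and 5.66 against 3.05, 3.14 and 3.34 (difference 3.08 ± 0.32, adjusted p = 5.61e-10). In each of these genes all perineal tumours were above and all perioral tumours below background. The periorbital carcinoma, also from the head, measured 3.36 in Hoxa9, 2.77 in Hoxa10 and 3.20 in Hoxb2, as low as the perioral ones.

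Hoxd9 (2.08 ± 0.53), Hoxa7 (2.06 ± 0.34), Hoxd8 (1.92 ± 0.49), Hoxd10 (1.81 ± 0.46), Hoxa5 (1.69 ± 0.39) and Hoxb3 (1.46 ± 0.36) were the other higher genes. The Hoxd genes divided the 4 perineal tumours. Hoxd9 measured 5.78, 8.35, 4.16 and 7.88, and Hoxd8 and Hoxd10 were likewise high in samples 2 and 4 and near the perioral range in sample 3. All 3 calls were lost without sample 2 (adjusted p = 0.16 to 0.18) or sample 4 (0.116 to 0.134), Hoxd10 and Hoxd8 also without perioral sample 1 and Hoxd8 and Hoxd9 without perioral sample 3. With the 2 groups fitted alone they had adjusted p of 0.247 to 0.274. Hoxd8 also lost its call with the mean of its probe sets (difference 1.49, adjusted p = 0.0647). Hoxb3 was lost without perineal sample 2 (0.0572) or perioral sample 3 (0.0605), and fell below the size threshold with the mean of its probe sets (difference 0.79). Smooth muscle marker means were 8.02, 8.49, 5.91 and 8.72 in the 4 tumours, lowest in the same sample 3, and 5.36 to 6.22 in perioral tumours. Hoxb13, at 6.06, 4.54, 3.01 and 2.94, and Hoxd13, at 5.04, 4.47, 2.70 and 3.59, were above background in samples 1 and 2 only. Hoxc13, a hair and nail gene, measured 5.44, 4.25 and 3.70 in perioral and 2.85, 3.07, 3.61 and 3.27 in perineal carcinoma (difference -1.26 ± 0.21, adjusted p = 2.03e-05), and lost its call when the 2 groups were fitted alone (adjusted p = 0.127) or, by the filter, without perioral sample 1. Stroma markers were not called between the sites, smooth muscle markers were higher in perineal tumours for 2 of 6 and epithelium markers for 2 of 8.

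**Figure D4:**
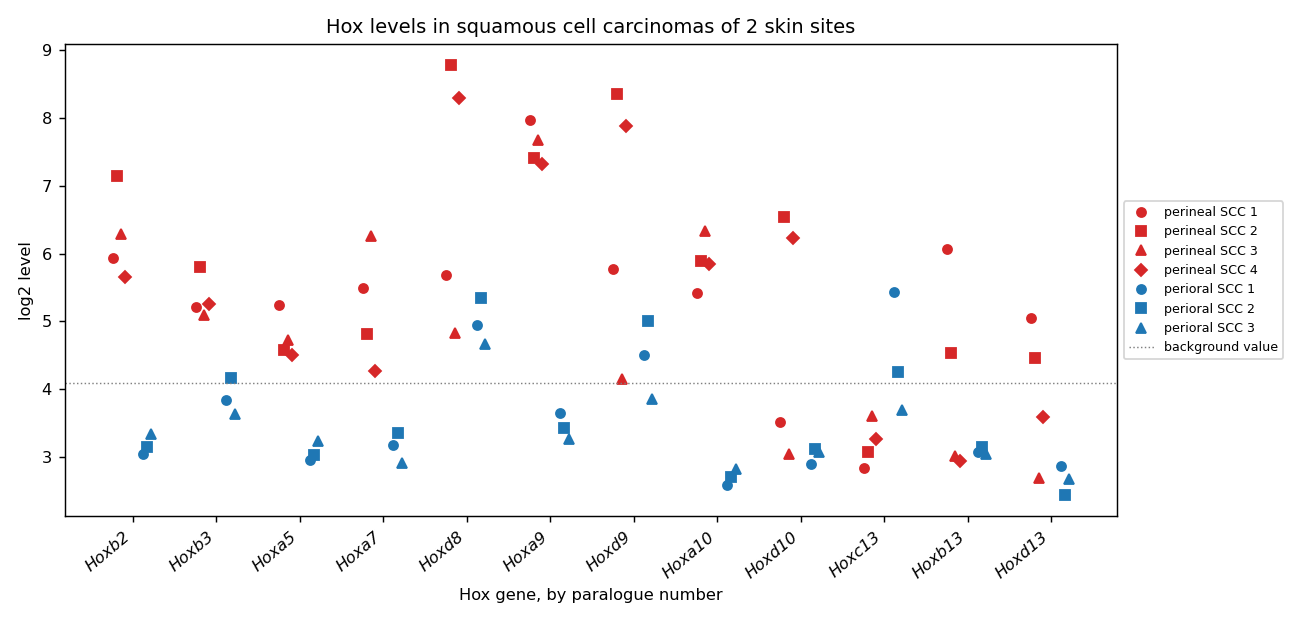
Log2 level of the 10 called Hox genes and of Hoxb13 and Hoxd13 in 4 perineal (red) and 3 perioral (blue) squamous cell carcinomas, each sample with its own symbol, with the background value as a dotted line. Hoxa9, Hoxa10 and Hoxb2 separated all tumours by site, while Hoxd8, Hoxd9 and Hoxd10 were highest in perineal samples 2 and 4.

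Large intestinal adenomas had more Hox genes above background than small intestinal adenomas. Of 17 tested genes 13 were higher, while 6.6% of all genes were, and limma called 0 lower (6.32% of all genes), with 0 at an unadjusted p under 0.05 in that direction. Genes at background in small intestinal adenoma, such as Hoxb9, Hoxc8 and Hoxb6, entered through their level in large intestinal adenoma. These counts therefore do not support a test of the family. Hoxb9 measured 3.99, 7.40, 6.30, 7.29 and 7.36 in the colon and 2.97, 3.09 and 2.64 in the duodenum (difference 3.57 ± 0.53, adjusted p = 2.98e-06). All colon samples were higher, 1 of them still at background. Hoxc8 measured 7.84, 5.59, 7.49, 6.72 and 2.63 against 2.69, 2.65 and 2.80 (difference 3.34 ± 0.54, adjusted p = 1.75e-05), and colon sample 5 lay within the duodenal values. Hoxb6 measured 5.04, 7.23, 5.53, 6.67 and 6.68 against 3.02, 2.99 and 3.02 (difference 3.22 ± 0.36, adjusted p = 5.86e-09), with no overlap. Hoxd8 (2.77 ± 0.47), Hoxa7 (2.49 ± 0.33), Hoxa10 (2.16 ± 0.61), Hoxb3 (2.09 ± 0.35) and Hoxd9 (1.87 ± 0.51) followed, and Hoxa9, Hoxb8, Hoxd4, Hoxb5 and Hoxc9 were higher by 1.04 to 1.77.

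The adenomas differed among themselves. Small intestinal sample 2 stood above the other 2 in Hoxa7 (5.93), Hoxa9 (6.71) and Hoxa10 (5.05), within or near the colon values. Colon sample 5, with Hoxc8 at background, had the highest Hoxa10 (8.75, beside 3.64 to 7.01 in the other 4), the highest mean of the colon marker list (10.70, beside 5.72 to 8.97) and the lowest of the smooth muscle list (5.70, beside 7.50 to 7.99). Sample 1 had the highest Hoxc8 and the lowest Hoxb9, and its colon marker mean was the lowest, at 5.72. Hoxc9 fell below the size threshold with quantile normalization (0.92), without colon sample 1 (0.92), 2 (0.98) or 3 (0.95), and without small intestinal sample 1 (0.98). Hoxb5 was filtered out without colon sample 2 or 5 and Hoxd4 without 2. Hoxa10 lost its call without sample 5 (difference 1.40, adjusted p = 0.0553), and Hoxa10 and Hoxa9 without small intestinal sample 1 or 3. With the 2 groups fitted alone, Hoxa10, Hoxa9 and Hoxd9 had adjusted p of 0.196, 0.11 and 0.0591. Stroma markers were higher in the colon for 4 of 9, endothelium markers for 3 of 8 and colon markers for 4 of 5, and their part was not tested.

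**Figure D5:**
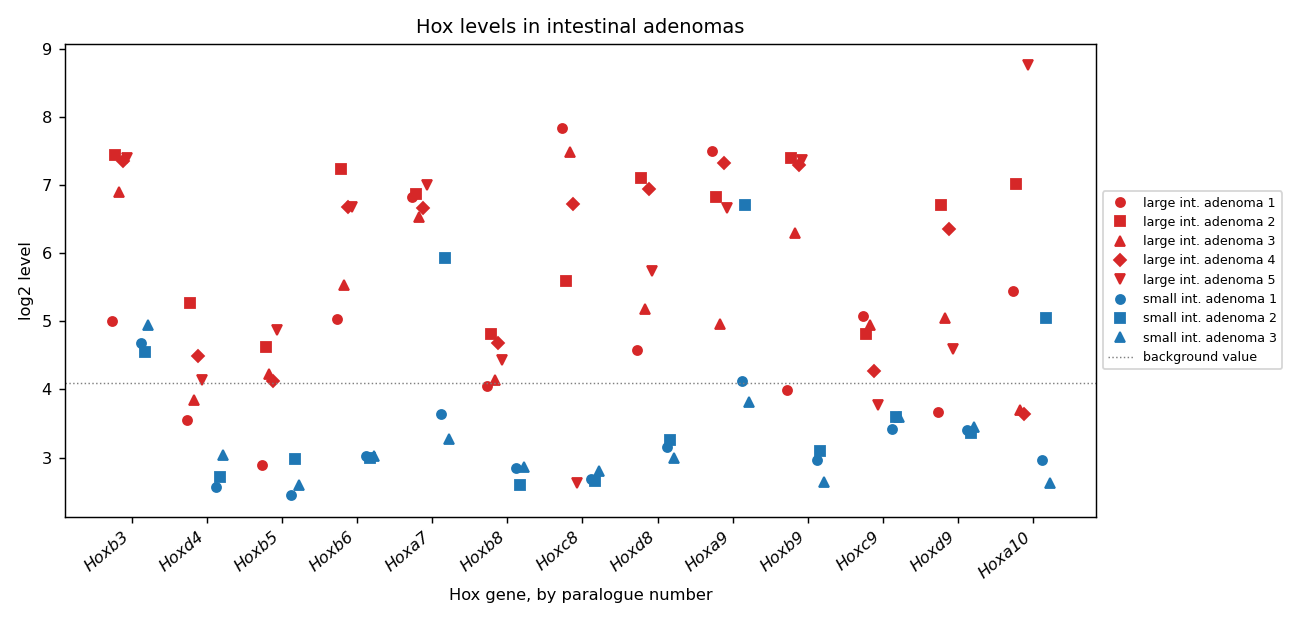
Log2 level of 13 called Hox genes in 5 large (red) and 3 small (blue) intestinal adenomas, each sample with its own symbol, with the background value as a dotted line. Most red points lie above the blue ones, sample 5 (inverted triangle) is lowest in Hoxc8 and highest in Hoxa10, and sample 1 (circle) is lowest in Hoxb9.

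In the stomach, gastric adenocarcinoma had higher Hoxa5 than gastric adenoma, the single call among 5 tested genes (13.7% of all genes were higher). It measured 5.70, 5.25, 5.61 and 5.68 in adenocarcinoma and from 2.82 through a median of 3.38 to 4.53 in 7 adenomas (difference 2.03 ± 0.32, adjusted p = 1.25e-06). The groups did not overlap. Stroma markers were higher in adenocarcinoma for 4 of 9 and macrophage markers for 7 of 8, and their part was not tested.

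Each metastasis was a single sample and no test was made. Levels are given beside the range of the primaries, and the share of all genes outside such a range was not computed. In the uterine carcinoma metastases Hoxb6 measured 8.97 (abdomen) and 8.79 (liver) beside 9.01 to 9.25 in the 3 primaries. Hoxb3 measured 8.66 and 8.82 beside 9.18 to 9.28. Both metastases were below the primaries in Hoxa10, at 3.91 and 2.73 beside 5.02 to 8.44. Hoxc8 was at background in all primaries of stomach (2.72 to 3.15) and uterus (2.60 to 3.33), but measured 6.11 and 6.58 in the abdominal and liver metastases of gastric adenocarcinoma and 6.36 in the abdominal metastasis of uterine carcinoma. The liver metastasis of uterine carcinoma was at 3.03. The abdominal uterine metastasis also had Hoxc10 at 4.79 beside 2.74 to 3.01 in primaries. In the lung metastasis of HCC/CC, Hoxa5 measured 6.39 beside 3.26 to 4.78 in the 14 primaries, and lung cells themselves had 6.61 to 9.72. Markers of the host organ were high in some of these samples. The alveolar list mean was 9.32 in the lung metastasis of HCC/CC beside 3.38 to 5.27 in its primaries and 8.10 to 9.60 in lung cells. The hepatocyte list mean was 11.84 in the liver metastasis of uterine carcinoma beside 3.14 to 5.34 in its primaries. In the liver metastasis of gastric adenocarcinoma it was 5.75, within the 4.01 to 6.97 of its primaries. Their part in the Hox levels was not tested.

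Genes that work with or upstream of Hox genes were read from 4 lists. Of 11 TALE cofactor genes 10 were measured and 8 tested between sorted organs: 3 were higher in lung cells (12.8% of all genes), 4 in salivary gland cells (10.9%) and 3 in uterus cells (15.3%). In prostate cells 2 were higher (10.4%) and 1 lower (7.26%), and in stomach cells 1 each (9.08% and 10%). In kidney cells 4 were lower (17.2%), in liver cells 4 (18.2%) and in small intestine cells 3 (15.1%). In salivary gland cells, where Hox genes were mostly at background, Meis1 was higher by 3.39 ± 0.58 and Meis2 by 2.70 ± 0.68, while Meis2 was lower in prostate cells (-3.16 ± 0.68). Of 3 tested Cdx and ParaHox genes, Cdx1 (5.42 ± 0.17), Cdx2 (3.23 ± 0.24) and Pdx1 (4.41 ± 0.19), regulators of gut identity, were all higher in small intestine cells (14.3% of all genes). Between large and small intestinal adenoma Cdx1 (2.66 ± 0.38) and Cdx2 (1.22 ± 0.37) were higher, and Pdx1 (-1.88 ± 0.59) and 4 of 7 TALE genes, led by Meis2 (-3.26 ± 0.60), lower (6.6% of all genes higher, 6.32% lower). Of 19 trithorax and polycomb genes at most 3 were called in any organ comparison, all 3 of them lower in liver cells (18.2% of all genes). In neonatal against untreated liver cells 8 of 18 were higher and 1 lower, where 22% of all genes were higher and 8.63% lower. There Ezh2, the catalytic subunit of polycomb complex 2, was higher by 3.25 ± 0.46. Among 12 other positional transcription factors, Tbx1 (-3.23 ± 0.63), Lhx2 (-2.22 ± 0.42) and Dlx5 (-2.14 ± 0.30), genes active in head development, were lower in perineal than in perioral carcinoma (1.79% of all genes) and none was higher (1.55%).

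Some probe sets limit the reading. Hoxb8 is read by a probe set ending in _s_at, a name that marks possible cross-hybridisation to related transcripts. Hoxa10 and Hoxb6 are read by probe sets ending in _a_at, which marks transcripts of the same gene. Both endings were left out in the same setting. Hoxd8 had a second probe set with a similar pattern over all samples (r = 0.96, mean 8.33 in kidney cells). Its call in perineal carcinoma was lost with the mean of both. The second probe sets of Hoxb3 and Hoxb4 were lower, with means over all samples of 3.90 and 3.60 beside 5.44 and 4.83. They had r of 0.75 and 0.86 with those used. Calls that fell with the mean of both are given above. Hoxa3 was flat, at group means of 4.34 to 5.74, and its other 3 probe sets had r of 0.25 to 0.28 with it, so its level carries little about the gene. Hoxb5os, a noncoding gene of the Hoxb cluster outside the 34, had its highest means in kidney cells (9.54), prostate cells (8.27) and uterine carcinoma (8.04).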

How the data were processed

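Expression arrays of Prom1-sorted cells, primary tumours and metastases were deposited by the authors as a log2 value per probe set. The submitters' processing notes name Partek 6.6; how background was corrected and arrays normalized is not given in the sources used here. Of 45141 probe sets, 28898 name 1 gene in the platform annotation, 551 several and 15588 none, and 104 are controls. Symbols gave 17097 genes, each read from the probe set with the highest mean, and gene identifiers of all 34 Hox genes matched RefSeq. Array medians lay between 3.82 and 4.24, and median centring changed several counts, as given below. The depth of a signal is limited by array background, and the number of arrays limits the precision. The 2 most similar arrays (r = 0.993) differed by up to 1.75, so none was taken as a duplicate.

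Groups came from the sample labels. Differences were tested on the log2 scale with limma 3.58.1 in R 4.3.3 (lmFit, contrasts, eBayes with trend), with Benjamini-Hochberg adjustment over all genes tested. Organ and liver comparisons were fitted on all sorted groups, tumour against sorted cells on those groups, and tumour against tumour on all primary groups of 2 or more. Genes entered where a compared group (any of the 8 organs, for organ comparisons) had a mean above the 40th percentile of the fitted values. Calls needed an adjusted p under 0.05 and a difference of at least 1. The procedure was tested on simulated data. Alternatives were quantile normalization, median centring, the mean of probe sets and no probe sets ending in _x_at, _s_at or _a_at. Further ones were other filters, other samples in the fit, and each sample left out.

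Members were all genes of the symbol pattern; the members and gene lists were chosen with earlier results of these data known. Per comparison the text names up to 8 called members by size, gives every sample for the first 3, and at most 3 called genes of each list. Promoter sequences came from RefSeq (GRCm38.p6), cut to the bases before the start.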

Additional observations from a re-analysis of the deposited data

Results flagged for a closer look

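Hoxb6 differed in its tumour effect between uterus and prostate: it was 1.11 higher in uterine carcinoma than in uterus cells and fell by 1.67 in prostatic adenocarcinoma against prostate cells, a difference of 2.78 (adjusted p = 0.00634 in limma), in a test added after the values were seen. All 3 uterine carcinomas lay above all uterus samples and all 8 prostatic adenocarcinomas below all prostate samples.

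In single metastases that no comparison uses, several Hox genes stood above both background and every primary tumour of their type by at least 1. Hoxc8 was at 6.11 in the abdominal and 6.58 in the liver metastasis of gastric adenocarcinoma, and at 6.36 in the abdominal metastasis of uterine carcinoma, which also had Hoxc10 at 4.79. Hoxb9 was at 4.56 in the liver metastasis of gastric adenocarcinoma. Hoxa5 was at 6.39 in the lung metastasis of HCC/CC, a sample whose alveolar marker mean was 9.32 beside 3.38 to 5.27 in the 14 primaries; lung cells had Hoxa5 at 6.61 to 9.72. The part of lung tissue in this value was not tested. No gene and group of 4 to 10 samples was listed for a single distant sample among the 26 examined.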

How the results depend on the processing

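Of the recomputed counts of called Hox genes 219 stayed within 1.5 times the reported count and 48 did not. Of the up to 3 largest calls per comparison none reversed, and Hoxb5 in lung cells and Hoxb6 in prostatic adenocarcinoma each lost the call in 2 fits; smaller calls were lost more often, as given beside several results. Leaving out probe sets ending in _x_at, _s_at or _a_at removes Hoxa10, Hoxb6 and Hoxb8. The counts then fell from 5 to 2 in liver cells and from 8 to 5 in prostate cells. They fell from 8 to 5 in small intestine cells and from 6 to 3 in stomach cells. Median centring moved uterus cells from 9 to 14.

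For neonatal liver cells, with 0 as reported, the count was 4 after quantile normalization and 5 after median centring. It was 1 each with the mean of probe sets, without probe sets ending in _x_at, _s_at or _a_at, or with no filter. For DDC-treated liver cells, also 0, it was 1, 3, 1, 1 and 1 in that order, and 1 with the compared groups alone. The count for HCC/CC, 0 as reported, was 3 after quantile normalization, 7 after median centring and 2 with all groups in 1 fit. For lung adenocarcinoma, also 0, it was 2, 2 and 3, and 1 with the 60th percentile filter. For gastric adenoma, also 0, quantile normalization gave 1 and median centring 2. These scalings also moved all genes. The share of calls that were higher went from 71.9% to 51.0% (quantile) and 36.6% (centring) for neonatal liver, from 74.8% to 54.1% and 42.4% for DDC, from 73.6% to 49.8% and 39.8% for HCC/CC, from 70.7% to 54.2% and 49.7% for lung adenocarcinoma, and from 72.5% to 54.0% and 37.3% for gastric adenoma. For uterus cells it went from 67.4% to 55.5% and 34.6%. Centring alone moved it from 35.7% to 50.7% for liver cells, from 59.0% to 45.2% for prostate cells and from 61.7% to 34.3% for small intestinal adenoma. Quantile normalization lowered prostatic adenocarcinoma from 11 to 7. The 60th percentile filter, which tests fewer genes, gave 6 there, 0 in small intestinal adenoma and in gastric adenocarcinoma (from 1 each), 3 of 10 in perineal carcinoma and 4 of 13 in large intestinal adenoma. With the compared groups alone perineal carcinoma gave 6.

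With 1 sample left out, counts ranged from 7 to 10 in salivary gland cells, 0 to 2 in neonatal and 0 to 1 in DDC-treated liver cells, 6 to 11 in prostatic adenocarcinoma, 0 to 1 in gastric adenoma, 0 to 2 in lung adenocarcinoma, 0 to 3 in HCC/CC, 6 to 12 in perineal carcinoma and 1 to 2 in gastric adenocarcinoma. The number of all genes called went from 908 to 3629 for lung adenocarcinoma with all groups in 1 fit, and to 389 to 1505 with a sample left out. It went from 1405 to 934 (60th percentile filter) and to 746 (without small intestinal sample 3) for large intestinal adenoma, from 2503 to 1469 for stomach cells without sample 1 and from 1220 to 797 for gastric adenoma without stomach sample 2. No paired analysis was possible because the labels give no replicate numbers or pairs. Genes at array background limit all comparisons, since a difference from them is understated.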
